A study of Mus musculus with 4 samples.

Results

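The enzymes and chaperones that modify and crosslink collagen were examined in bulk RNA-seq of mouse calvarial bone. They comprise 10 genes: the lysyl oxidases Lox, Loxl1, Loxl2, Loxl3 and Loxl4, the lysyl hydroxylases Plod1, Plod2 and Plod3, and the collagen chaperones Serpinh1 and Fkbp10. They were chosen by gene symbol, and all 10 were found among the 23946 genes of the deposited tables. Frontal and parietal bones were taken from wild-type and from Twist1+/- mice, which carry 1 functional copy of the transcription factor gene Twist1, on a C57BL/6J background at postnatal day 21. The neural crest gives rise to the frontal bone and paraxial mesoderm to the parietal bone, and the study asked whether loss of 1 Twist1 copy acts differently on them. Mice numbered 12 per strain, and 1 library was analysed for each genotype and bone, 4 in all. The bones were taken with pericranium and dura mater, so that a lower level can mean fewer cells of a type or less RNA per cell, which cannot be told apart. Each condition is represented by 1 set of values, called a library here. The methods of the study speak of replicates, and whether these values come from a single animal, a pool or a mean over replicates is not stated. No difference could be set against replicate error, and nothing was tested.

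Collagen is modified inside and outside the cell. In the endoplasmic reticulum, lysyl hydroxylases convert lysine residues of procollagen to hydroxylysine, while the chaperone HSP47 (Serpinh1) holds the folded triple helix and the prolyl isomerase FKBP65 (Fkbp10) assists folding and the hydroxylation of telopeptide lysines. Outside the cell, copper-dependent lysyl oxidases convert lysine and hydroxylysine to reactive aldehydes, from which the covalent crosslinks of collagen fibrils and elastin form. Bone matrix depends on these steps for its strength, and mutations of several of these genes cause brittle bone and joint disorders.

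Several features of the libraries touch every value below. FPKM counts fragments per kilobase of transcript after scaling for fragment number, and the scaling between libraries is not given in the sources used here. Twist1 was at 59.0 FPKM in wild-type frontal bone, 52.5 FPKM in wild-type parietal bone, 30.4 FPKM in Twist1+/- frontal bone and 50.7 FPKM in the parietal library labelled Twist1+/-. In parietal bone the targeted gene therefore does not separate the genotypes, and directions that involve the last library rest on its label. Its ratio to wild-type parietal bone also followed the GC content of the transcript: when genes were divided into 20 groups by GC content, the group with the least GC had a median log2 ratio of -0.59 and the group with the most 0.70. The same medians were 0.01 and 0.09 between the frontal bones, 0.08 and -0.26 between the wild-type bones and -0.51 and 0.42 between the Twist1+/- bones. Ratios are therefore also given after subtraction of the median ratio of the GC group to which the gene belongs. The sum of FPKM over all genes ran from 496064 to 701440. Conversion to TPM, which sets these sums equal, shifts every log2 ratio by 0.11 between the parietal, -0.07 between the frontal, -0.50 between the wild-type and -0.33 between the Twist1+/- bones, so levels and directions below are those in FPKM unless another scale is named. Osteoblast and osteocyte genes were present in each library, and all 12 genes of the list, among them Sp7, Runx2, Alpl, Ibsp and Dmp1, exceeded 1 FPKM. The main substrate could not be set beside the enzymes, since the collagen I chains Col1a1 and Col1a2 had 5595 and 6326 FPKM in the wild-type parietal library and are listed at 0 elsewhere, values that cannot be read as absence in bone.

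All 10 genes were at or above 8.18 FPKM, a level per length, in every library. Serpinh1 was the highest of them in every library, at 1085 FPKM in wild-type frontal, 920 FPKM in wild-type parietal, 652 FPKM in Twist1+/- frontal and 1107 FPKM in the parietal library labelled Twist1+/-. This placed the chaperone between rank 27 and rank 92 of all genes. Lox and Fkbp10 held ranks 2 and 3 among the 10 genes and changed places between libraries. Loxl3 and Loxl4 were the lowest in each library, between 8.18 and 17.5 FPKM. With no replicates, it cannot be said which neighbours in this order differ beyond their spread.

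**Figure D1:**
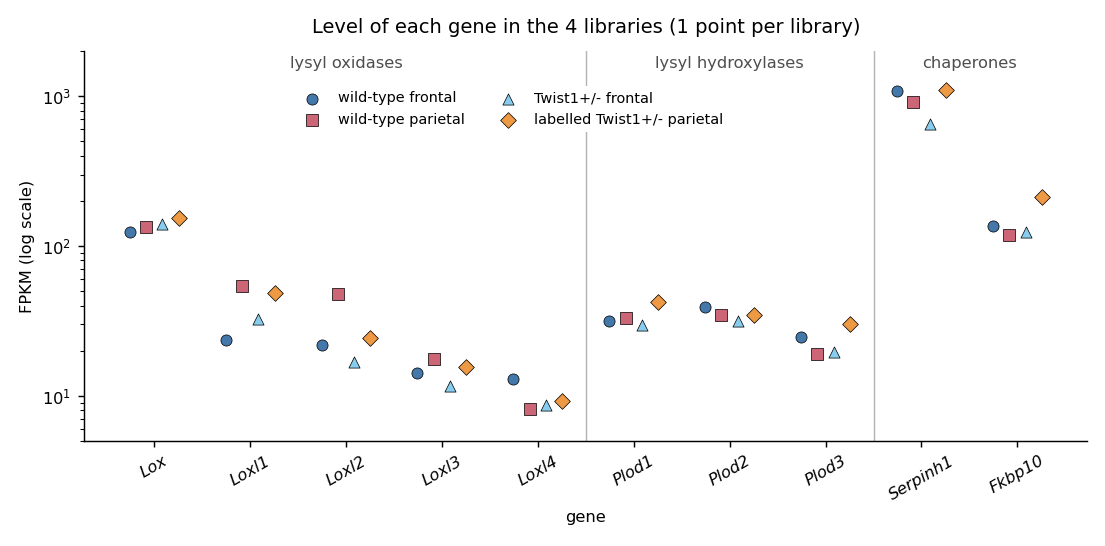
Level of each of the 10 genes in FPKM on a log axis, with 1 point for each of the 4 libraries. Serpinh1 lies between 652 and 1107 FPKM and Lox and Fkbp10 between 119 and 213 FPKM, while Loxl1 and Loxl2 show the widest spread, with the highest values in wild-type parietal bone.

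Lox, which encodes the principal lysyl oxidase of fibrillar collagen, was at 124 FPKM in wild-type frontal bone, 134 FPKM in wild-type parietal bone, 139 FPKM in Twist1+/- frontal bone and 153 FPKM in the parietal library labelled Twist1+/-. These levels lay within 1.24-fold of each other, as did those of Plod2, and in TPM the span of Lox was 1.41-fold. Among 12291 genes at or above 1 FPKM in all 4 libraries, the span in FPKM had a median of 1.72-fold and quartiles of 1.43-fold and 2.19-fold. The transcript of Lox (chr18:52675723-52689521 in mm9, reverse strand) has a GC content of 42.6%, and after subtraction of the GC trend its log2 ratio of labelled Twist1+/- to wild-type parietal bone went from 0.19 to 0.78.

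Loxl1 and Loxl2 had the widest spans in FPKM, 2.28-fold and 2.86-fold, whereas in TPM Loxl4 (2.24-fold) and Loxl2 (2.12-fold) did. Loxl1, whose product is needed for elastic fibres, was at 23.7 FPKM in wild-type frontal, 54.1 FPKM in wild-type parietal, 32.6 FPKM in Twist1+/- frontal and 48.3 FPKM in the parietal library labelled Twist1+/-. Both parietal libraries were thus above both frontal libraries, by 2.28-fold in wild-type bone and by 1.48-fold with the Twist1+/- label. Loxl1 (chr9:58135530-58161019 in mm9, reverse strand) has the highest GC content of the 10 transcripts, 60.8%. After subtraction of the GC trend its log2 ratio between the wild-type bones went from 1.19 to 1.45, that between the Twist1+/- bones from 0.57 to 0.15, and that between the parietal bones from -0.16 to -0.87.

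Loxl2, a lysyl oxidase that also acts on the collagen IV of basement membranes, was at 21.9 FPKM in wild-type frontal, 47.9 FPKM in wild-type parietal, 16.8 FPKM in Twist1+/- frontal and 24.3 FPKM in the parietal library labelled Twist1+/-. Wild-type parietal bone was highest, and the other 3 libraries lay between 16.8 and 24.3 FPKM. In TPM the values were 44.1, 68.3, 32.3 and 37.3 in the same order of libraries. The log2 ratio of labelled Twist1+/- to wild-type parietal bone was -0.98, and that of wild-type parietal to frontal bone 1.13. With a GC content of 51.1%, near the median of 50.7% for all genes compared between the parietal bones, Loxl2 (chr14:70008978-70095640 in mm9, forward strand) kept both ratios after subtraction of the GC trend, at -0.98 and 1.14. Over the 8 alternatives of pseudocount, scaling and GC content, its ratio between the parietal bones ranged from -1.32 to -0.59. In frontal bone the ratio of Twist1+/- to wild-type was -0.38. In TPM the log2 ratio between the wild-type bones was 0.69 for Loxl1 and 0.63 for Loxl2. The noncoding gene Gm16867 overlaps exons of Loxl2 on the opposite strand. Shared sequence was searched in protein-coding transcripts only, so the size of this overlap was not measured.

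The remaining oxidases were lower. Loxl3 (chr6:82984167-83002556 in mm9, forward strand), which is required for the palate and the vertebral column, was at 14.2 FPKM in wild-type frontal, 17.5 FPKM in wild-type parietal, 11.6 FPKM in Twist1+/- frontal and 15.7 FPKM in the parietal library labelled Twist1+/-, again with each parietal library above the frontal library of its genotype, although in TPM the log2 ratio between the wild-type bones was -0.19. Loxl4 (chr19:42668472-42687303 in mm9, reverse strand), another secreted member of the family, was at 13.0 FPKM in wild-type frontal bone and between 8.18 and 9.26 FPKM in the other 3 libraries, and was lower in wild-type parietal than in wild-type frontal bone (log2 ratio -0.66, and -1.16 in TPM). Of the 4024 windows of 75 bases in the Loxl3 transcript, 326 also occur in Htra2, which overlaps its exons on the opposite strand. The library kit marks strand, but whether strand was used in counting is not stated, so that reads from this overlap cannot be assigned with certainty.

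The sum of the 5 oxidases was 197 FPKM in wild-type frontal, 261 FPKM in wild-type parietal, 209 FPKM in Twist1+/- frontal and 251 FPKM in the parietal library labelled Twist1+/-. Lox made up 63.0%, 51.2%, 66.7% and 61.1% of these sums in the same order. Its share was lowest in wild-type parietal bone, where Loxl1 and Loxl2 were highest.

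Among the lysyl hydroxylases, Plod1 encodes the enzyme that acts on lysines of the triple helix, and it was at 31.5 FPKM in wild-type frontal, 33.2 FPKM in wild-type parietal, 29.8 FPKM in Twist1+/- frontal and 42.2 FPKM in the parietal library labelled Twist1+/-. Plod2, whose product acts on the telopeptides and sets the kind of crosslink that forms, was at 38.9, 34.8, 31.5 and 34.8 FPKM in the same order. Plod2 therefore varied little (1.24-fold from lowest to highest), and its values in the 2 parietal libraries were nearly equal, at a log2 ratio of 0.00. That ratio was 0.59 once the GC trend was subtracted, and the Plod2 transcript has a GC content of 43.0%. Plod1 lies at chr4:147283862-147310876 (reverse strand) and Plod2 at chr9:92437061-92503266 (forward strand) in mm9.

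Plod3, which encodes a lysyl hydroxylase that also adds sugars to hydroxylysine, was at 24.8 FPKM in wild-type frontal, 19.0 FPKM in wild-type parietal, 19.6 FPKM in Twist1+/- frontal and 30.3 FPKM in the parietal library labelled Twist1+/-. It was highest in the last of these, 1.60-fold above wild-type parietal bone, but after subtraction of the GC trend the log2 ratio went from 0.67 to 0.12. Its neighbour Znhit1 overlaps the exons of Plod3 (chr5:137462889-137472518 in mm9, forward strand) on the opposite strand and holds 381 of the 3206 windows of 75 bases of the transcript.

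Serpinh1 (chr7:106493885-106501740 in mm9, reverse strand) had its lowest value in Twist1+/- frontal bone, 1.66-fold below wild-type frontal bone (log2 ratio -0.74), and 4.36% of the 14259 genes compared had a lower ratio. After subtraction of the GC trend this ratio was -0.73. Fkbp10 (chr11:100277011-100286138 in mm9, forward strand) was at 135 FPKM in wild-type frontal, 119 FPKM in wild-type parietal, 124 FPKM in Twist1+/- frontal and 213 FPKM in the parietal library labelled Twist1+/-. The last value stood above the other 3, and was 1.79-fold that of wild-type parietal bone. The log2 ratio between the parietal bones went from 0.84 to 0.29 after subtraction of the GC trend (GC content 57.4%), and 122 of the 2510 windows of 75 bases of Fkbp10 also occur in Nt5c3l, an overlapping gene on the opposite strand.

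Twist1 is a basic helix-loop-helix factor, a class that binds the E-box CANNTG. Of the 10 genes, 4 matched the RefSeq promoter table (Loxl4, Plod1, Plod3 and Serpinh1). Sequences are shown for Plod3 and Serpinh1, the pair with the largest difference in genotype ratio between the bones as deposited. After subtraction of the GC trend the differences of Loxl1 (-1.23) and Plod2 (0.81) were larger in size. The sequences are the 250 bases before the annotated start in GRCm38.p6, a later build than the mm9 of the expression values, read 5′ to 3′ on the strand of the gene, at chr5:136986769-136987018 (forward strand) for Plod3 and chr7:99353240-99353489 (reverse strand) for Serpinh1. Capitals mark matches to CANNTG, a motif that reads as the same pattern on both strands.
Plod3: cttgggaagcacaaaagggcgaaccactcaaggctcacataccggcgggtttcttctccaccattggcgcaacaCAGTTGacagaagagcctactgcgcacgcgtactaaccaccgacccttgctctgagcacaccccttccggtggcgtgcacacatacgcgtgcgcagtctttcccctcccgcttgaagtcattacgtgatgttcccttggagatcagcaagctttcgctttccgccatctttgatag
Serpinh1: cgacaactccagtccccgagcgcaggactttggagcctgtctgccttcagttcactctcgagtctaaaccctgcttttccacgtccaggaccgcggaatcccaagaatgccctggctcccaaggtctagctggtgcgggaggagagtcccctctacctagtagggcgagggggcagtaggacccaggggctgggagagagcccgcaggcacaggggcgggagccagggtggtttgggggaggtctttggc
The Plod3 window held 1 match, CAGTTG, which begins 176 bases before the start, and the Serpinh1 window held 0. The window of Plod1 held 2 matches, CAGATG and CACTTG, and that of Loxl4 held 0. Of 32851 promoter windows of this length, 66.2% held at least 1 match, with a median of 1. A match describes the letters in the window and is no measure of binding.

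None of the 10 genes passed the 3-fold threshold with 1 FPKM in the higher library, in any of the 4 comparisons. Of all genes at that floor, 8.19% were past 3-fold between the parietal bones, 3.89% between the frontal bones, 13.3% between the wild-type bones and 4.09% between the Twist1+/- bones. Past 2-fold were Loxl1 and Loxl2 between the wild-type bones, 2 of 10 genes against 26.9% of all genes. Both fell short of 2-fold in TPM and with scaling to Gapdh, to osteoblast genes or to the total without genes at 1000 FPKM, and with these 4 scalings Loxl4 alone was past it, lower in parietal bone. None of the 10 genes was past 2-fold between the parietal bones (20.2% of all genes), the frontal bones (7.18%) or the Twist1+/- bones (11.9%). Between the parietal bones Plod3 (log2 ratio 1.07) and Fkbp10 (1.23) passed 2-fold with scaling to Gapdh, and Loxl2 (-1.32) with scaling to osteoblast genes. Among genes with at least 10 FPKM in the higher library, the range in which nearly all of these genes lie, the shares past 2-fold were 14.8% between the parietal, 3.58% between the frontal, 22.6% between the wild-type and 5.77% between the Twist1+/- bones.

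Past 1.5-fold, Fkbp10 and Plod3 were higher and Loxl2 was lower in the parietal library labelled Twist1+/- than in wild-type parietal bone, 3 of 10 genes against 45% of all genes. In Twist1+/- frontal bone, Serpinh1 and Loxl4 were lower by this measure, 2 of 10 against 15.2%. Between the wild-type bones Loxl1 and Loxl2 were higher and Loxl4 lower in parietal bone, 3 of 10 against 48.6%. Between the Twist1+/- bones Fkbp10, Serpinh1 and Plod3 were higher in parietal bone, 3 of 10 against 30.5%. The shares of these genes past each threshold were thus at or below those of all genes, apart from the 1.5-fold count in frontal bone.

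**Figure D2:**
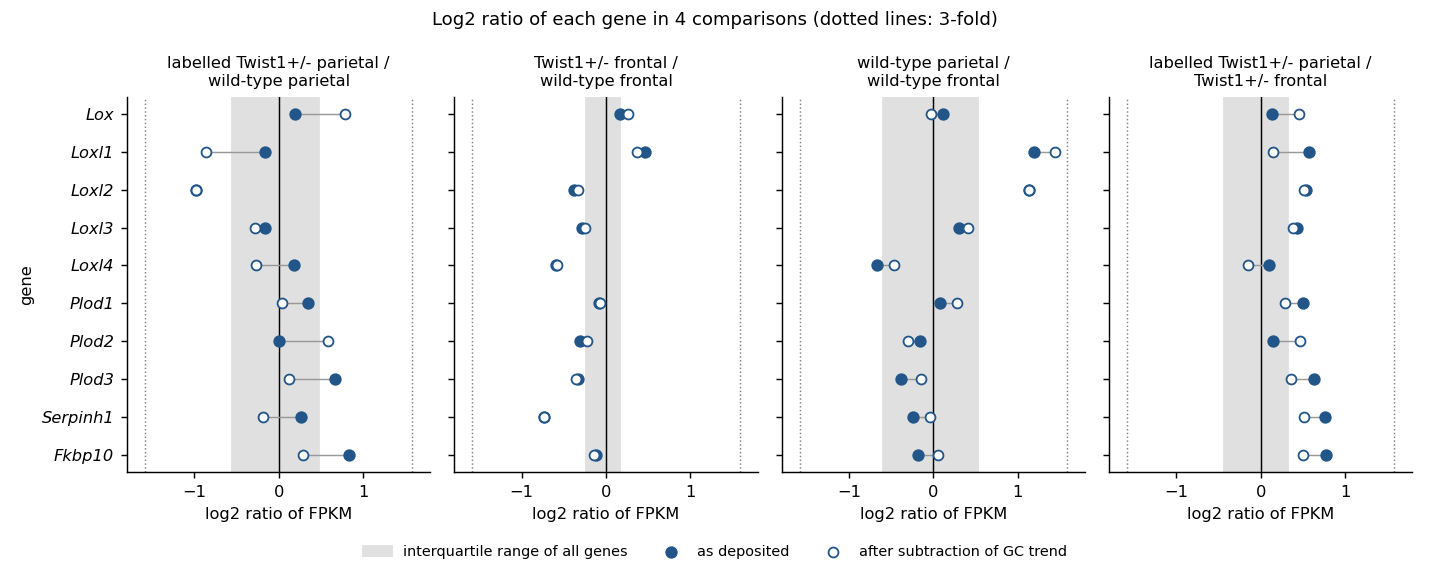
Log2 ratio of FPKM for each of the 10 genes (rows) in the 4 comparisons (panels), as deposited (filled) and after subtraction of the median of genes of similar GC content (open); the grey band is the interquartile range of all genes and dotted lines mark 3-fold. Loxl2 keeps its place between the parietal and between the wild-type bones, at -0.98 and 1.13 as deposited, whereas Fkbp10 and Plod3 move toward 0 between the parietal bones.

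In FPKM all 10 genes were higher in the parietal library labelled Twist1+/- than in Twist1+/- frontal bone, with log2 ratios from 0.10 for Loxl4 to 0.78 for Fkbp10 and a median of 0.52, while 47.5% of all genes were higher and their median was -0.03. After subtraction of the GC trend the median of the 10 genes was 0.42, and Loxl4 alone had a negative value (-0.15). In TPM, and with scaling to the total without genes at 1000 FPKM, 7 of 10 were higher, and Lox (-0.19 in TPM), Loxl4 (-0.22) and Plod2 (-0.18) were lower. With scaling to osteoblast genes 5 of 10 were higher, and 5 of the 10 ratios (Loxl1, Loxl2, Plod3, Serpinh1 and Fkbp10) kept their sign under all 8 alternatives. Genes of several cell types moved with them, and those of others did not. Osteoclast genes were higher in 10 of 10 cases (median difference in log2(FPKM + 1) 0.81), fibroblast and smooth muscle genes in 9 of 10 (0.58), skeletal muscle genes in 10 of 10 (0.46), cartilage genes in 9 of 10 (0.29) and endothelial genes in 8 of 10 (0.22). Neutrophil genes were higher in 0 of 10 (-0.85), erythroid genes in 2 of 9 (-0.26) and brain and meninges genes in 3 of 10 (-0.31). Nasal epithelium genes were higher in 6 of 10 (0.08). Of the osteoblast and osteocyte genes, 11 of 12 were higher in the same comparison, with a median difference in log2(FPKM + 1) of 0.56 against 0.50 for the 10 genes. When the libraries were scaled to the osteoblast genes Sp7, Runx2, Alpl and Ibsp, the median log2 ratio of the 10 genes was -0.01. Sost, an osteocyte gene, was 4.11-fold higher in the parietal library labelled Twist1+/- than in wild-type parietal bone, and Ibsp, which encodes bone sialoprotein, was 3.13-fold higher in wild-type parietal than in wild-type frontal bone. Other genes of this list went the other way, and 7 of 12 were higher in each of these comparisons. Dmp1 (log2 ratio -0.87) and Phex (-1.32) were lower in the former, and Sp7 (-0.61) and Sost (-0.55) in the latter. The genes used for scaling did not move as one. Between the wild-type bones the log2 ratio was -0.61 for Sp7, 0.57 for Runx2, 0.00 for Alpl and 1.65 for Ibsp. Scaling to them is therefore no measure of osteoblast content, and the part of these cell types in the levels of the 10 genes was not tested.

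In Twist1+/- frontal bone 8 of the 10 genes were lower than in wild-type frontal bone, with a median log2 ratio of -0.30, while 55.4% of all genes were lower and their median was -0.04. Lox (0.17) and Loxl1 (0.46) were the exceptions. The signs of 9 of these 10 ratios were kept under each of the 8 alternatives, and that of Lox changed with scaling to osteoblast genes (-0.04). In this comparison the 12 osteoblast and osteocyte genes had a median difference of 0.16 in log2(FPKM + 1), against -0.28 for the 10 genes. Skeletal muscle genes, 10 of 10 of which were past 3-fold upward in Twist1+/- frontal bone, had a sum of 104 FPKM in wild-type and of 1203 FPKM in Twist1+/- frontal bone, and nasal epithelium genes of 318 and 1525 FPKM. Erythroid genes, 0 of 9 of which were higher, summed to 1721 and 880 FPKM. Brain and meninges genes, 3 of 10 of which were higher, summed to 2294 and 660 FPKM. The medians of the cartilage, neutrophil, endothelial, osteoclast and fibroblast lists lay between 0.06 and 0.16. The part of these cells in the lower levels of the 10 genes was not tested.

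Between the parietal bones the 10 genes divided into 7 higher and 3 lower with the Twist1+/- label, with a median log2 ratio of 0.19. The median was -0.07 after subtraction of the GC trend and -0.15 with scaling to osteoblast genes. Only Loxl2, Plod1, Plod3 and Fkbp10 kept their sign under all 8 alternatives, and for Plod1 the ratio fell as low as 0.01. Between the wild-type bones 5 genes were higher and 5 lower in parietal bone, with a median log2 ratio of -0.04. In TPM, and with scaling to Gapdh, to osteoblast genes or to the total without genes at 1000 FPKM, 2 (Loxl1 and Loxl2) were higher and 8 lower, and the median was -0.54 in TPM.

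The library with the lowest or highest value depended on the scale. In FPKM, 5 of the 10 genes (Serpinh1, Plod1, Plod2, Loxl2 and Loxl3) were lowest in Twist1+/- frontal bone, where 19.0% of the 12291 genes at or above 1 FPKM throughout had their lowest value, and in TPM 3 were (Serpinh1, Loxl2 and Loxl3), against 8.24%. In FPKM, 5 genes (Serpinh1, Fkbp10, Lox, Plod1 and Plod3) were highest in the parietal library labelled Twist1+/-, against 23.6% of all genes, and in TPM 2 were (Fkbp10 and Plod1), against 12.1%. In TPM, 5 genes (Loxl3, Loxl4, Plod2, Plod3 and Serpinh1) were highest in wild-type frontal bone, against 49.4% of all genes, and Lox in Twist1+/- frontal bone. Lowest in wild-type parietal bone in TPM were 6 genes (Lox, Loxl4, Plod1, Plod2, Plod3 and Fkbp10), against 46.1% of all genes. In FPKM 3 genes were lowest there, against 31.4%.

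The question of the study, whether the 2 bones respond alike, was addressed by the log2 genotype ratio in parietal bone minus that in frontal bone. This difference was 1.01 for Plod3, 1.002 for Serpinh1 and 0.96 for Fkbp10, each with a ratio above 0 in parietal and below 0 in frontal bone. Loxl1 and Loxl2 lay at the other end, with -0.62 and -0.60. The median of the 10 genes was 0.37, and 8 of 10 were above 0, against a median of -0.01 and 49.4% of 13430 genes above 0. The interquartile range of all genes, which by definition leaves as many genes outside as inside, ran from -0.52 to 0.51. Of the 10 genes, 6 lay outside it, which is close to that share. After subtraction of the GC trend in each bone, the differences were 0.48 for Plod3, 0.55 for Serpinh1, 0.43 for Fkbp10, -1.23 for Loxl1 and -0.64 for Loxl2. The order of the genes then changed, with Plod2 at the top (0.81), Lox at 0.52 and the remaining 3 genes between -0.03 and 0.31.

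Ratios of 2 genes within a library do not depend on how the library was scaled. The ratio of Fkbp10 to Serpinh1 was 0.125 in wild-type frontal and 0.130 in wild-type parietal bone, and 0.191 in Twist1+/- frontal and 0.193 in the parietal library labelled Twist1+/-, so that it separated the libraries by genotype label in both bones. In frontal bone this came with a lower Serpinh1 value and in parietal bone, as deposited, with a higher Fkbp10 value. The GC contents of the transcripts, 57.4% and 56.8%, are close, and after subtraction of the GC trend the log2 change of this ratio with the Twist1+/- label was 0.47 in parietal and 0.59 in frontal bone. The parietal log2 ratios were then 0.29 for Fkbp10 and -0.19 for Serpinh1. How many other pairs of genes separate the libraries in this way was not counted. The ratio of Loxl2 to Lox was 0.177, 0.358, 0.120 and 0.159 in wild-type frontal, wild-type parietal, Twist1+/- frontal and labelled Twist1+/- parietal bone, highest in wild-type parietal bone. The ratio of Lox to Loxl1 was 5.22, 2.47, 4.27 and 3.17 in that order and was lower in parietal than in frontal bone for both genotypes. Between the Twist1+/- bones this direction turned with the GC trend subtracted, from a log2 change of -0.43 to 0.30, and between the wild-type bones it was -1.47.

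Among the hydroxylases, the ratio of Plod2 to Plod1 was 1.24, 1.05, 1.06 and 0.825 in the same order of libraries. It was lower in parietal bone than in frontal bone for both genotypes, and lower with the Twist1+/- label than without it in both bones. Plod2 and Plod1 transcripts differ in GC content (43.0% against 56.3%), and both directions that involve the parietal library labelled Twist1+/- turned with the GC trend subtracted. The log2 change of the ratio went from -0.34 to 0.55 between the parietal bones and from -0.36 to 0.18 between the Twist1+/- bones. The ratio of Plod3 to Plod1 was 0.787, 0.572, 0.658 and 0.718.

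**Figure D3:**
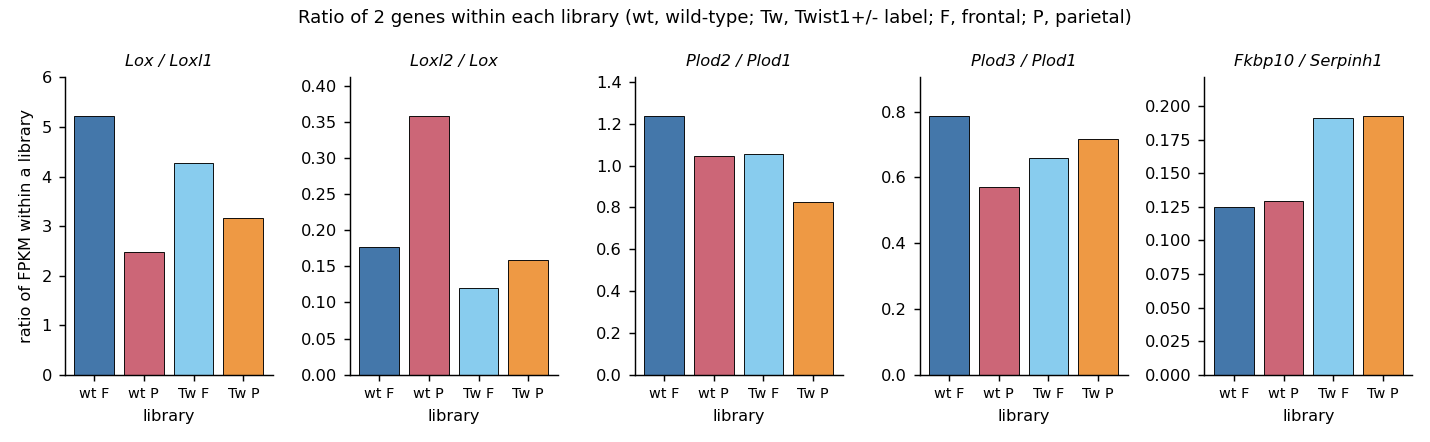
Ratio of FPKM of 2 genes within each library, for 5 pairs of genes, with bars from 0 for wild-type frontal (wt F), wild-type parietal (wt P), Twist1+/- frontal (Tw F) and labelled Twist1+/- parietal (Tw P) bone. Fkbp10 / Serpinh1 is 0.125 and 0.130 in the wild-type libraries and 0.191 and 0.193 in those with the Twist1+/- label, and Loxl2 / Lox is highest in wild-type parietal bone at 0.358.

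The same steps of collagen maturation involve other genes, which were compared as lists. Of 17 further genes of collagen hydroxylation and folding (prolyl hydroxylases, their partners and procollagen export factors), 1 was past 3-fold in any comparison. This was Creb3l1, a transcription factor of the endoplasmic reticulum that drives collagen I expression in osteoblasts, at 74.3 FPKM in wild-type frontal, 32.3 FPKM in wild-type parietal, 86.6 FPKM in Twist1+/- frontal and 132 FPKM in the parietal library labelled Twist1+/-. The median difference of this list in log2(FPKM + 1) was -0.02 between the parietal bones, -0.26 between the frontal bones, 0.23 between the wild-type bones and 0.50 between the Twist1+/- bones. In the frontal and Twist1+/- comparisons these medians were close to those of the 10 genes, -0.28 and 0.50. The medians over all genes at 1 FPKM were -0.05, -0.03, -0.01 and -0.03 in the 4 comparisons.

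Of 8 genes that process procollagen (Bmp1, the Adamts procollagen peptidases, Tll1, Tll2 and the Pcolce enhancers), 6 reached 1 FPKM and none was past 3-fold in any comparison. Their median was 0.42 between the parietal bones and -0.39 between the wild-type bones. Among 11 fibrillar collagen chains, Col11a2 and Col5a3 were past 3-fold upward in the parietal library labelled Twist1+/-, Col11a2 from 79.9 to 305 FPKM and Col5a3 from 4.25 to 13.3 FPKM. Col11a2 was also past 3-fold lower in wild-type parietal than in wild-type frontal bone (337 FPKM), and Col2a1 was higher there (8.61 against 1.49 FPKM). Col1a1 and Col1a2 counted as past 3-fold in the comparisons with wild-type parietal bone, where the other library is listed at 0, and no fold is given for them.

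Elastin, a substrate of Lox and Loxl1, was the single gene of the 6-gene elastic fibre list past 3-fold. Eln was at 27.8 FPKM in wild-type frontal, 136 FPKM in wild-type parietal, 37.8 FPKM in Twist1+/- frontal and 49.4 FPKM in the parietal library labelled Twist1+/-, and like Loxl2 it was highest in wild-type parietal bone. The other 5 genes of that list stayed within 3-fold in each comparison. Lox, Loxl2 and Plod2 are known targets of the hypoxia-inducible factors, and 10 other hypoxia-responsive genes were read beside them. Between the wild-type bones 7 of the 10 were higher in parietal bone, with a median of 0.90, and Car9, Bnip3 and Ankrd37 were past 3-fold, while Slc2a1 went from 24.1 FPKM in frontal to 8.08 FPKM in parietal bone. The log2 ratios of Lox, Loxl2 and Plod2 there were 0.11, 1.13 and -0.16. Between the parietal bones the list median was -0.59, and the ratios of the same 3 genes were 0.19, -0.98 and 0.00. The part of a hypoxia response in these levels was not tested.

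**Figure D4:**
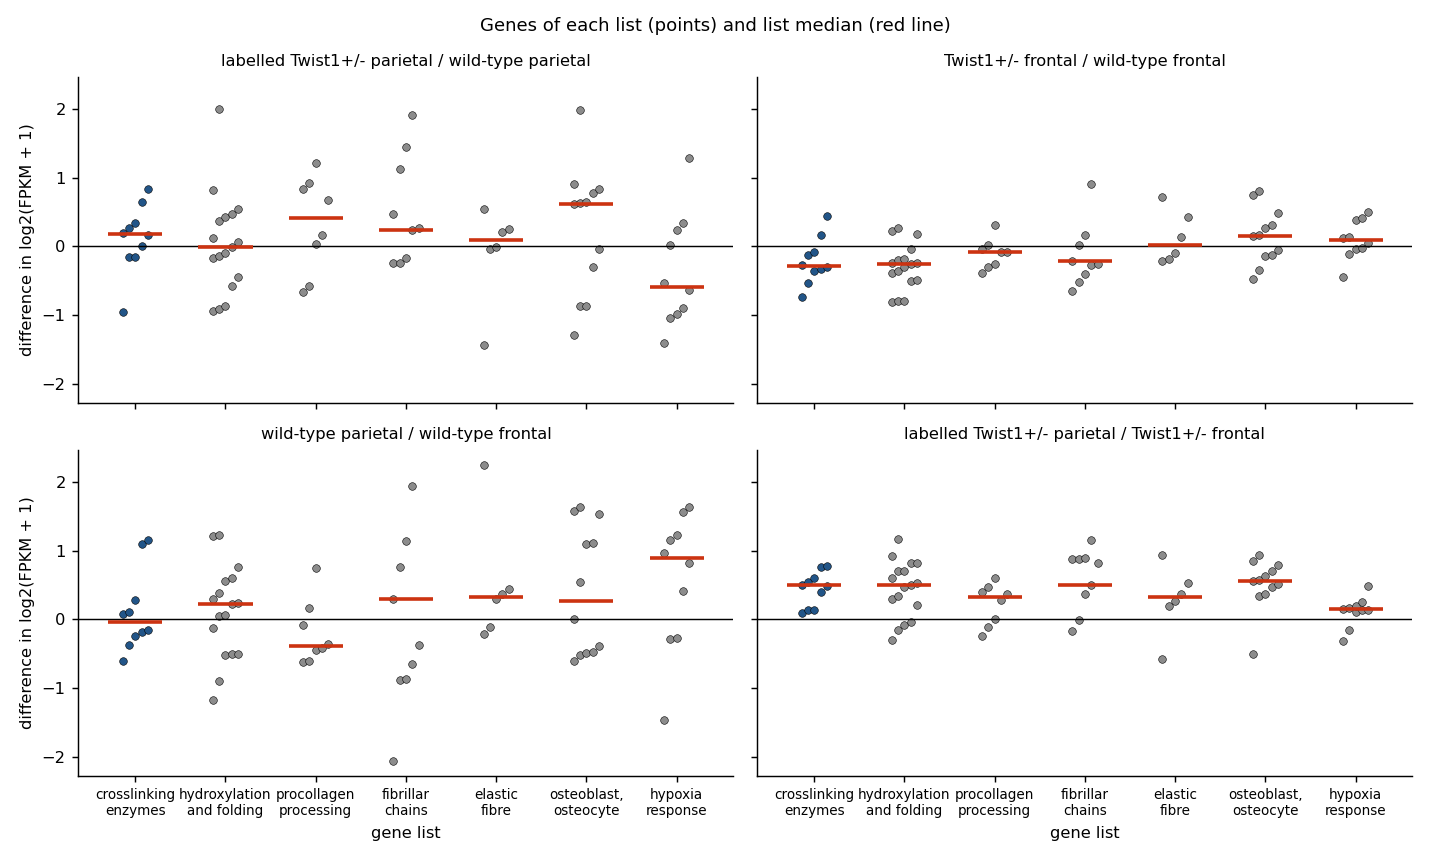
Difference in log2(FPKM + 1) of each gene (points) of 7 lists in the 4 comparisons (panels), with the list median as a red line; Col1a1 and Col1a2, listed at 0 in 3 libraries, are not drawn but count in the median of the fibrillar chains. Between the Twist1+/- bones (lower right) all 10 crosslinking genes lie above 0, with a median of 0.50, as do 11 of 12 osteoblast and osteocyte genes, with a median of 0.56.

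Genes of other cell types moved with wild-type parietal bone, the library in which Loxl1, Loxl2 and Eln were highest. Of 10 fibroblast and smooth muscle genes, 6 were past 2-fold higher there than in wild-type frontal bone and none was past 2-fold lower, among them Acta2 (28.4 to 101 FPKM) and the tendon gene Tnmd (21.3 to 142 FPKM), and the list summed to 1189 FPKM in wild-type frontal, 2925 FPKM in wild-type parietal, 870 FPKM in Twist1+/- frontal and 1372 FPKM in the parietal library labelled Twist1+/-. The order of these sums is that of Loxl2, but Lum and Postn weigh most in them. Postn alone, at 396, 1044, 199 and 283 FPKM in the same libraries, had another order than Loxl2 in FPKM. In TPM, however, Loxl2 too was higher in wild-type frontal bone (44.1) than in the parietal library labelled Twist1+/- (37.3). Pi16 and Myh11 were lower in wild-type parietal than in wild-type frontal bone. Cartilage genes summed to 22.6, 79.3, 26.2 and 48.7 FPKM in the same order of libraries, with Matn1 listed at 0 in the last. Osteoclast genes summed to 2674, 9271, 3320 and 6795 FPKM, and muscle genes to 104, 2962, 1203 and 1667 FPKM. Brain and meninges genes summed to 2294, 108, 660 and 758 FPKM, erythroid genes to 1721, 782, 880 and 829 FPKM, neutrophil genes to 15827, 7766, 17708 and 10027 FPKM, and nasal epithelium genes to 318, 23.2, 1525 and 1635 FPKM with Scgb1a1 at 0 throughout. Endothelial genes summed to 189, 206, 203 and 260 FPKM, with no gene past 3-fold in any comparison. The part of these cells in the levels of Loxl1 and Loxl2 was not tested.

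Likeness of pattern was measured over the 4 libraries as the Euclidean distance between log2(FPKM + 1) values centred on each gene's mean, among the 10 genes and 36 other genes of collagen synthesis. The nearest gene to Loxl2 was Ppib, which encodes the prolyl isomerase cyclophilin B, at a distance of 0.13 against a median of 1.11 over the 45 other genes. Plod3 was nearest to Pcolce, the procollagen C-proteinase enhancer (0.06, median 0.63), and Serpinh1 to the prolyl hydroxylase subunit P4ha2 (0.20, median 0.72). Fkbp10 was nearest to Plod3 (0.26), the single case in which both genes belong to the 10. Loxl1 had the most distant nearest neighbour, Col27a1, at 0.35. The GC trend was not subtracted for these distances, and the transcripts of Plod3, Pcolce and Fkbp10 have similar GC contents (57.8%, 58.5% and 57.4%). With 4 points per gene, these distances describe the libraries and no more.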

How the data were processed

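Poly(A) RNA from frontal and parietal bones was sequenced, and the authors aligned single-end reads to mm9 with STAR 2.4.2a and the iGenomes annotation. The authors deposited 1 FPKM value for each gene in each library, made with Cuffdiff (Cufflinks 2.2.1), and the scaling option and the use of strand in counting are not given in the sources used here. FPKM values do not give the depth of a library, so no interval or detection floor is attached. The FPKM worth of 1 read was estimated for 3 pairs of libraries from the steps between values of low genes (0.005 to 0.1 FPKM). It was 1.27 times as high in Twist1+/- frontal as in wild-type frontal bone and 1.31 times in wild-type parietal as in Twist1+/- frontal bone. In the parietal library labelled Twist1+/- it was 0.973 times that of wild-type parietal bone. These pairs form a chain, so libraries not paired here, such as the wild-type bones, can differ by more than a single step.

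Ratios of FPKM were formed for 4 comparisons of 1 library each, with no test. A gene counted as past a threshold when its ratio exceeded 3-fold (also 2-fold and 1.5-fold) and the higher library reached 1 FPKM. List medians used log2(FPKM + 1), which understates the change of low genes. GC content was that of the longest protein-coding transcript of GENCODE M1 (mm9), and the median log2 ratio of each of 20 groups by GC content was subtracted as an alternative. Windows of 75 bases were searched on both strands in protein-coding transcripts of other genes. Alternatives were pseudocounts of 1 and 0.1, scaling to the median ratio, to Gapdh, to the total without genes at 1000 FPKM or to 4 osteoblast genes, other thresholds and floors, and TPM computed from FPKM. Ratios and extremes in TPM, the 2-fold count under each scaling and ratios of 2 genes with the GC trend subtracted were added after seeing the data.

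The members and lists were chosen with earlier results of these data known. Named genes are the 10 members, list genes past 3-fold, the nearest gene in pattern to a member, and Twist1, Gapdh, Col1a1 and Col1a2 as checks. Genes named from the cell marker lists, and list genes within 3-fold, were chosen as examples after their values were seen. The procedures were tested on simulated data. Python 3.11.15, numpy 2.4.6 and pandas 2.3.3 were used.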

Additional observations from a re-analysis of the deposited data

Results flagged for a closer look

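For 7 of the 10 genes the genotype ratio ran in opposite directions in the parietal and frontal bones, which is also the case for 45.6% of 13430 genes. The difference was not tested, since each condition has 1 library. The log2 ratio in parietal bone minus that in frontal bone was 1.01 for Plod3, 1.002 for Serpinh1, 0.96 for Fkbp10, 0.77 for Loxl4, 0.43 for Plod1 and 0.31 for Plod2, all of which were higher with the Twist1+/- label in parietal bone and lower in frontal bone. It was -0.62 for Loxl1, which ran the other way. The sign of each of these 7 differences was kept under the 8 alternatives, but the opposite directions themselves were not all kept: in parietal bone the ratio became -0.19 for Serpinh1 and -0.27 for Loxl4 after subtraction of the GC trend, -0.07 for Serpinh1, -0.16 for Loxl4 and -0.34 for Plod2 with scaling to osteoblast genes, and 0.23 for Loxl1 with scaling to Gapdh.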

How the results depend on the processing

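Of 320 log2 ratios of single genes recomputed under an alternative, 282 kept their sign and moved by less than 1.5-fold, 38 moved further or changed sign, and 0 of the ratios past 1.5-fold changed sign. The 3-fold count of 0 in each comparison remained 0 with each pseudocount, scaling, GC correction and floor. With a 2-fold threshold it was 2 between the wild-type bones, where it became 1 in TPM and with scaling to Gapdh, to osteoblast genes or to the total without genes at 1000 FPKM, and 0 between the parietal bones, where it became 2 with scaling to Gapdh and 1 with scaling to osteoblast genes. Conversion of the ratios to TPM, and the 2-fold count under other scalings, were chosen after seeing the data. With a 1.5-fold threshold the count was 3 between the parietal, 2 between the frontal, 3 between the wild-type and 3 between the Twist1+/- bones. The median log2 ratio of the 10 genes changed sign between the parietal bones with subtraction of the GC trend (-0.073) and with scaling to osteoblast genes (-0.15), between the wild-type bones with subtraction of the GC trend (0.016), and between the Twist1+/- bones with scaling to osteoblast genes (-0.0097). Scaling to osteoblast genes shifted every log2 ratio by -0.34 between the parietal, -0.21 between the frontal, -0.40 between the wild-type and -0.53 between the Twist1+/- bones. Scaling to Gapdh shifted them by 0.39, -0.10, -0.44 and 0.05, and scaling to the total without genes at 1000 FPKM by 0.16, 0.03, -0.37 and -0.24. Loxl1 and Loxl2 stayed higher in wild-type parietal than in wild-type frontal bone under each alternative, at log2 ratios no lower than 0.69 and 0.63, both in TPM. The order of the 10 levels within each library was the same in TPM. No paired analysis was possible because each condition has 1 library, and no library could be left out.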
